A study of Mus musculus with 12 samples.

Results

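Rasa1, Rasip1, Arhgap29, Rap1a, Rap1b, Krit1, Ccm2, Pdcd10, Heg1 and Map3k3 encode regulators of the small GTPases Ras and Rap1 and the proteins whose loss gives cerebral cavernous malformations. They are 10 of the 24421 genes listed, and were found as the rows that carry these symbols in each of the 12 tables. Rasa1 was picked because it was lower in L12-ECKO than in WT in these same libraries, so its values are given as a description with no test. The other 9 genes were taken for their place in the same pathways, with results of these data already known.

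The cells were endothelial cells sorted by flow cytometry from the lungs of C57BL/6J mice on postnatal day 5, and 3 groups of 4 libraries were compared. WT mice are labelled wild type. L12-ECKO mice carried VE-cadherin-CreERT2 with floxed Lats1 and Lats2, and L12YT-ECKO mice carried the same alleles with floxed Yap and TAZ as well. LATS1 and LATS2 are the Hippo pathway kinases that hold the coactivators YAP and TAZ inactive, so the design asks what their loss does to endothelial RNA and how much of it is still seen when YAP and TAZ are deleted too. The VE-cadherin driver limits the deletion to cells that express it, and the inducer's dose and timing and whether WT mice carried the driver are not stated. The labels do not say whether each library is a different animal, so p-values measure only the spread between these 12 libraries. Reads came from a kit that sequences the 3′ ends of transcripts. The deposited values are taken as log2 values that the authors had normalized, a reading that rests on the values themselves, and the depth is unknown.

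RASA1, also called p120RasGAP, switches Ras off by speeding its GTP hydrolysis, and its loss in people gives capillary and arteriovenous malformations. RASIP1 is a Rap1 effector of endothelial cells that acts with its partner ARHGAP29 at junctions and in the opening of vascular lumens. KRIT1 (CCM1), CCM2 and PDCD10 (CCM3) form a complex that Rap1 and the membrane protein HEG1 bring to endothelial junctions. There it restrains the kinase MEKK3, encoded by Map3k3, and through it ERK5, MEF2 factors and the transcription factors KLF2 and KLF4.

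Promoters of Rasa1 and Krit1 are shown because these were the members with the widest separation between WT and L12-ECKO, Rasa1 lower and Krit1 higher. Each window runs from 250 bases before to 50 bases after a RefSeq transcript start on GRCm38.p6. The Rasa1 window is chr13:85289437-85289736 on the minus strand and the Krit1 window is chr5:3802931-3803230 on the plus strand. Capitals mark the ETS core CCGGAAG, the letters bound by ETS factors such as the endothelial regulator ERG.
Rasa1: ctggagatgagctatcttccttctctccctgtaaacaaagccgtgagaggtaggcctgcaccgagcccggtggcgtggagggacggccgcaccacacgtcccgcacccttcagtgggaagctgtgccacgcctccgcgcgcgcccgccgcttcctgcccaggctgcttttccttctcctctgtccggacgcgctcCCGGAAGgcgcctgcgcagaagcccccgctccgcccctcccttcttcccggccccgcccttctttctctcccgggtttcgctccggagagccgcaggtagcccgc
Krit1: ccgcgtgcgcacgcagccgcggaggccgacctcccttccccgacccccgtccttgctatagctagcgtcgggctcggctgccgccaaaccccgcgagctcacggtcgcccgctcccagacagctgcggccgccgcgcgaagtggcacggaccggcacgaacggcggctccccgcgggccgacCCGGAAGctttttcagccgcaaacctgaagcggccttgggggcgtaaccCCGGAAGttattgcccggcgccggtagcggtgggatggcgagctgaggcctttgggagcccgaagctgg
The ETS core began at base -55 from the RefSeq start in Rasa1, and at -68 and -19 in Krit1. The Rasa1 window lies wholly upstream of the GENCODE span of the gene, which begins at 85289130 on the minus strand. Its -55 therefore holds for the RefSeq start only. Searched on both strands (CCGGAAG or CTTCCGG), it was present in 8.86% of the 32851 mouse promoter windows in the table. RefSeq windows were matched for 9 of the 10 members, with 12 windows in all, and Rap1a had no entry. The ETS core was found in 4 of the 12 windows, those of Rasa1, Krit1 (both windows) and Ccm2, and the Krit1 windows overlap each other. The core GGAATG or CATTCC of TEAD factors, through which YAP and TAZ act on DNA, was in 14.66% of all windows and in 0 of the 12. The AP-1 motif TGANTCA was in 7.81% of all windows and in 1 of the 12, a second Ccm2 window. None of the motifs found overlapped another. A match or its absence describes these letters in these windows and nothing more.

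The labels were checked against the targeted genes and the cell type. Wwtr1, which encodes TAZ, was 8.16 to 9.37 in L12YT-ECKO against 11.56 to 12.01 in WT, and Yap1 was 6.69 to 8.20 against 9.46 to 10.02. The YAP and TAZ target Ctgf was 12.71 to 14.74 in L12-ECKO, above every WT library (5.84 to 9.08) and every L12YT-ECKO library (8.70 to 10.16). Lats1 was 5.32 to 7.45 across WT and 0 to 7.40 across L12-ECKO, and Lats2 was 8.42 to 9.34 and 9.71 to 10.33. The removed exons are not stated for any of these targeted genes, so reads at the 3′ end need not fall in them. Wwtr1 and Yap1 were lower in every L12YT-ECKO library than in any WT library, as that label would have it. Lats1 overlapped between WT and L12-ECKO and Lats2 was higher in L12-ECKO, so neither gene checks the L12-ECKO label here. All 12 endothelial markers were above 0 in every library, and their sum was 27503 to 28855 CPM in L12-ECKO, below every WT library (29048 to 29645 CPM), with L12YT-ECKO at 28335 to 31414 CPM. Egfl7, the highest of the 12, was 17.718 with an SD of 0 in each group, so a constant weighs most in this sum. Of the 12, 9 had a lower mean in L12-ECKO than in WT and 2 a higher one, with 0 called by limma. The largest fall was that of Tek, at -1.11 (limma adjusted p = 0.0779). In L12YT-ECKO minus WT 0 of the 12 were called. In L12YT-ECKO minus L12-ECKO 7 were higher and 4 lower, and 1 was called, against 0.0688% of all genes. This was Cldn5, higher by 1.14 (limma adjusted p = 0.0401). A run of 33 rows sat 1 row off in 5 tables: those of L12-ECKO replicates 2, 3 and 4, and of replicates 3 and 4 among the L12YT-ECKO libraries. These are called libraries with displaced rows below. These rows hold none of the genes described here, but they mark a difference in how the tables were made that falls on 0 WT libraries. By Xist and Ddx3y, WT replicate 4, L12-ECKO replicates 2, 3 and 4 and L12YT-ECKO replicate 3 were female. Within L12-ECKO the displaced rows and sex cannot be told apart. The summed markers of immune cells ranged from 1.6 to 7771.8 CPM in L12-ECKO, with the highest value in replicate 1, and from 11 to 280.0 CPM in WT, against 8.2 to 86.3 CPM in L12YT-ECKO. Those of liver cells were 48.3 to 413.5 CPM in L12-ECKO and 23.2 to 81.3 CPM in WT, where up to 9 of 10 were at 0, against 31.9 to 196.3 CPM in L12YT-ECKO. All 8 liver markers tested had a higher mean in L12-ECKO than in WT. The lowest value above 0 was 3.01 to 3.16 across WT and 0.067 to 4.98 across L12-ECKO. Genes above 0 numbered 11100 to 11276 across WT and 9850 to 13078 across L12-ECKO. A 0 therefore does not stand for the same level in each library, and its part in the liver marker differences was not tested. The sums of epithelial, mesenchymal and red cell markers overlapped between the groups. Eln, with a mean of 14.52, was the highest mesenchymal marker and weighs most in that sum. Of the 9 mesenchymal markers tested, 3 had a higher mean in L12-ECKO than in WT and 6 a lower one, with 0 called. At an unadjusted limma p under 0.05 stood 1 higher, Eln (0.64), and 3 lower, against 12.2% of all genes. The 3 were Col1a1 (-1.64), Pdgfrb (-3.095) and Acta2 (-1.50), named after their values were seen. The part of these marker levels in the differences below was not tested.

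**Figure D1:**
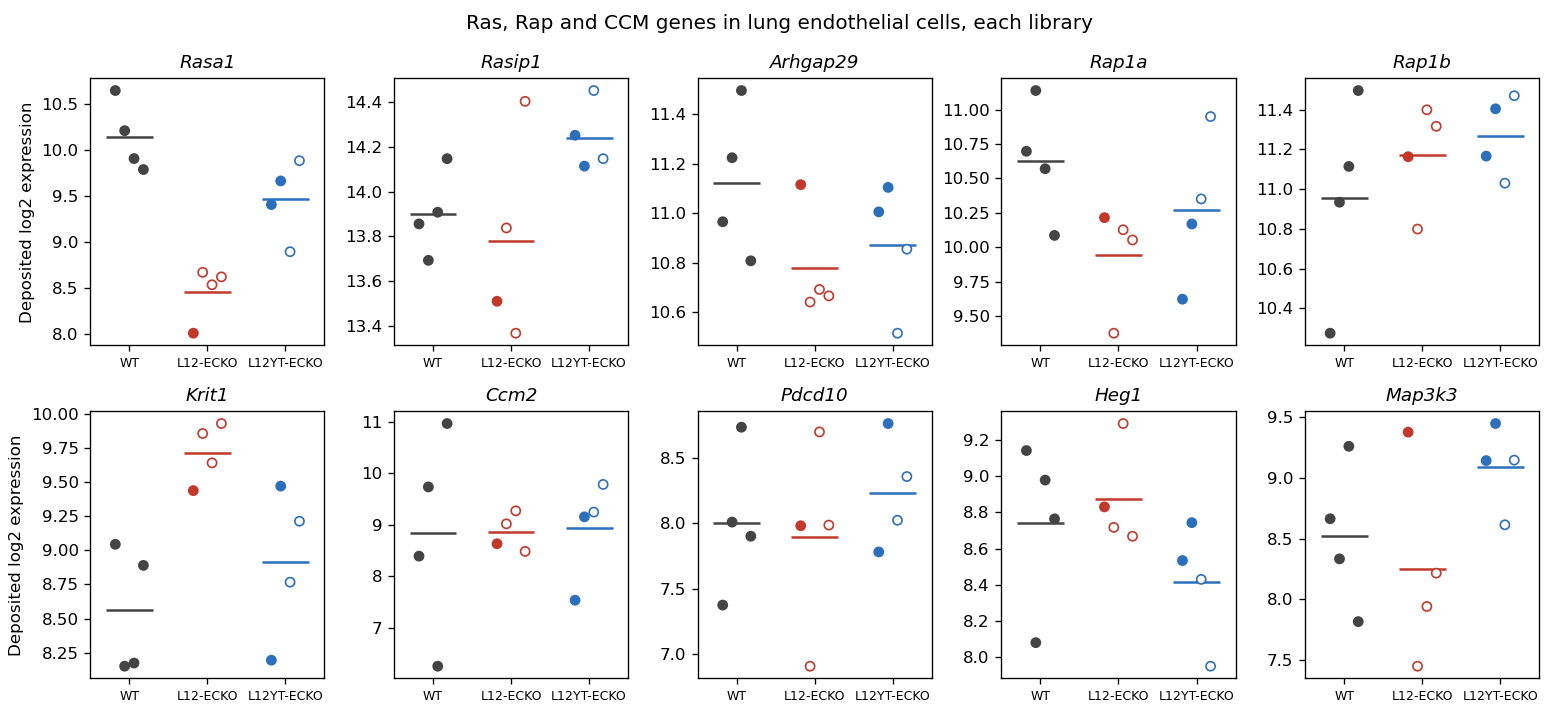
Deposited log2 expression of the 10 genes in each of the 12 libraries, by group. Horizontal lines are group means, filled points are libraries without displaced rows and open points those with them. The 4 L12-ECKO libraries lie below every WT library for Rasa1, which was chosen for that difference, and above every WT library for Krit1.

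Rasa1 was lower in every L12-ECKO library than in any library of the other groups. Rasa1 (chromosome 13, 85214780 to 85289130, minus strand, mm10, protein coding) had log2 expression of 10.64, 10.21, 9.90 and 9.78 in WT replicates 1 to 4. The L12-ECKO values were 8.01, 8.67, 8.53 and 8.62, and the L12YT-ECKO values 9.40, 9.66, 8.89 and 9.88. L12YT-ECKO lay between the other groups: its lowest library, replicate 3, was above the highest L12-ECKO library, and its highest, replicate 4, was within the WT range. WT averaged 10.13 ± 0.38 (SD, n = 4), L12-ECKO 8.46 ± 0.30 and L12YT-ECKO 9.46 ± 0.43. The difference that chose the gene was -1.68 (SE 0.36), or 3.20-fold lower in L12-ECKO. L12YT-ECKO minus WT was -0.68 (SE 0.36) and L12YT-ECKO minus L12-ECKO was 1.003 (SE 0.36). Each of these uses libraries that chose the gene, so no test is given for either. In bulk RNA, fewer cells of a type that uses Rasa1 and less Rasa1 RNA per cell cannot be told apart.

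Rasa1 was chosen for its fall in L12-ECKO, so the refits below describe that difference and give no support for it. The Rasa1 difference between L12-ECKO and WT lay between -1.79 and -1.51 when each library was left out in turn. With the displaced rows as a covariate it was -1.81, and with sex as a covariate it was -1.57. Among the 5 libraries without displaced rows the difference was -2.13, from L12-ECKO replicate 1 alone against the 4 WT libraries. L12-ECKO replicate 1 also had an immune marker sum of 7771.8 CPM, against 1.6 to 30.4 CPM in the other L12-ECKO libraries. The part of this in the fits that rest on replicate 1 was not tested. Among libraries without displaced rows L12YT-ECKO minus L12-ECKO was 1.53, from L12YT-ECKO replicates 1 and 2 against L12-ECKO replicate 1 alone. It was 0.78 among the 5 libraries with displaced rows. The 3′ end of Rasa1 lies under Ccnh, a cyclin gene on the opposite strand, and whether the counting used strand is not stated. Ccnh averaged 4.99 ± 3.44 (SD) across WT and 5.43 ± 1.23 across L12-ECKO (difference 0.43, SE 1.81, limma adjusted p = 0.943).

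Rasip1 was near the top of the table and close to equal in WT and L12-ECKO. RASIP1 acts downstream of Rap1 in the opening of vascular lumens, and its gene (chromosome 7, 45627488 to 45639093, plus strand, mm10) had a higher mean than 99.6% of the genes tested. The WT values were 13.86, 13.69, 13.91 and 14.15, the L12-ECKO values 13.51, 13.84, 13.37 and 14.40, and the L12YT-ECKO values 14.25, 14.11, 14.45 and 14.15. The groups overlapped, and L12-ECKO spread most, with replicate 4 near the top of the L12YT-ECKO range. L12-ECKO minus WT was -0.12 (95% interval -0.57 to 0.32, limma adjusted p = 0.854), and L12YT-ECKO minus WT was 0.34 (-0.11 to 0.78, limma adjusted p = 0.828). L12YT-ECKO minus L12-ECKO was 0.46 (0.01 to 0.90), with an unadjusted limma p of 0.0439 and an adjusted p of 0.811.

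Arhgap29 (chromosome 3, 121952541 to 122016753, plus strand, mm10) is the gene of the partner that binds RASIP1. It had the smallest spread within groups of the 10 genes, a residual SD of 0.26 against a median of 1.04 over all genes tested. That median covers genes of every level, and Arhgap29 had a higher mean than 91.5% of them. Arhgap29 measured 10.97, 11.22, 11.50 and 10.81 across WT, 11.12, 10.64, 10.69 and 10.67 across L12-ECKO and 11.01, 11.10, 10.51 and 10.85 across L12YT-ECKO. L12-ECKO replicates 2, 3 and 4 lay below all WT libraries and replicate 1 lay among them. L12-ECKO minus WT was -0.35 (95% interval -0.90 to 0.21, limma adjusted p = 0.608) and L12YT-ECKO minus WT was -0.25 (-0.81 to 0.30, limma adjusted p = 0.900). The L12-ECKO difference was -0.0419 with the displaced rows as a covariate, -0.008 among the libraries without displaced rows and -0.12 with sex as a covariate.

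The 2 Rap1 genes encode near-identical GTPases that switch on integrins and junction proteins. Rap1a (chromosome 3, 105727267 to 105801336, minus strand, mm10) was 10.70, 11.14, 10.57 and 10.09 across WT, 10.22, 9.38, 10.13 and 10.05 across L12-ECKO and 9.62, 10.17, 10.35 and 10.95 across L12YT-ECKO. Only WT replicate 4 fell within the L12-ECKO range, and L12YT-ECKO overlapped both. The L12-ECKO mean was lower than the WT mean by a difference of -0.68 (95% interval -1.39 to 0.03, limma adjusted p = 0.431). Rap1b (chromosome 10, 117813871 to 117846035, minus strand, mm10) was 10.28, 10.93, 11.11 and 11.50 across WT, 11.16, 10.80, 11.40 and 11.32 across L12-ECKO and 11.17, 11.40, 11.03 and 11.47 across L12YT-ECKO. Here WT alone spread over more than 1 log2 unit and held the other groups. The difference between L12-ECKO and WT was 0.21 (-0.38 to 0.81, limma adjusted p = 0.792). In the last 300 bases of their coding transcripts, where the reads fall, the 2 genes shared no stretch of 50 bases. In Rap1a 60 of 753 such stretches were also found in the processed pseudogene Gm9392, so the Rap1a value is less certain.

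Krit1 was higher in all 4 L12-ECKO libraries than in any WT library, but it did not pass the test over all genes. KRIT1 binds Rap1 and HEG1 and founds the CCM complex, and its gene lies at chromosome 5, 3803184 to 3845564, plus strand, mm10. The WT values were 9.04, 8.15, 8.17 and 8.89, the L12-ECKO values 9.44, 9.85, 9.64 and 9.93, and the L12YT-ECKO values 8.20, 9.47, 8.77 and 9.21. L12YT-ECKO overlapped WT, and its replicate 2 reached just into the L12-ECKO range. L12-ECKO minus WT was 1.15 (SE 0.39, 95% interval 0.34 to 1.96, 2.22-fold), with an unadjusted limma p of 0.00805 and an adjusted p of 0.217. L12YT-ECKO minus WT was 0.35 (-0.47 to 1.16, limma adjusted p = 0.902), and L12YT-ECKO minus L12-ECKO was -0.80 (-1.62 to 0.01, limma adjusted p = 0.811).

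The Krit1 difference between L12-ECKO and WT lay between 1.01 and 1.31 when each library was left out in turn. It was 0.96 with the displaced rows as a covariate, 1.05 with sex as a covariate and 0.87 among the 5 libraries without displaced rows, again from L12-ECKO replicate 1 alone. Lrrd1, which overlaps the 3′ end of Krit1 on the same strand, was listed at 0 in all 12 libraries.

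The 2 other CCM genes varied within groups more than between them. Ccm2 (chromosome 11, 6546887 to 6596744, plus strand, mm10), the scaffold that binds MEKK3, was 8.39, 9.74, 6.26 and 10.97 across WT, 8.64, 9.02, 9.27 and 8.49 across L12-ECKO and 7.54, 9.16, 9.25 and 9.79 across L12YT-ECKO. WT held both the lowest and the highest library, and the residual SD of 1.31 was the largest of the 10 genes. Between L12-ECKO and WT it differed by 0.01 (95% interval -1.67 to 1.70, limma adjusted p = 0.997), which leaves room for a change of over 1.5 log2 units in either direction. Pdcd10 (chromosome 3, 75516490 to 75556856, minus strand, mm10), which links the complex to STE20-family kinases, was 7.38, 8.01, 8.73 and 7.90 across WT, 7.98, 6.91, 8.70 and 7.99 across L12-ECKO and 7.78, 8.76, 8.02 and 8.36 across L12YT-ECKO. The groups overlapped over most of their range. Pdcd10 differed by -0.11 between L12-ECKO and WT (-1.17 to 0.95, limma adjusted p = 0.951). In Pdcd10 251 of 753 stretches of 50 bases at the 3′ end also occur in the processed pseudogene Gm14253, which makes its value uncertain.

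Heg1 and Map3k3 stand upstream and downstream of the CCM complex. Heg1 (chromosome 16, 33684370 to 33771576, plus strand, mm10), the membrane anchor of KRIT1, was 9.14, 8.08, 8.98 and 8.76 across WT, 8.83, 8.72, 9.29 and 8.67 across L12-ECKO and 8.53, 8.74, 8.43 and 7.95 across L12YT-ECKO. The groups overlapped, with L12YT-ECKO replicate 4 the lowest library. Heg1 differed by 0.14 between L12-ECKO and WT (95% interval -0.70 to 0.97, limma adjusted p = 0.919), and the antisense gene Gm15657 covers its 3′ end. Map3k3 (chromosome 11, 106084613 to 106155446, plus strand, mm10), the MEKK3 gene, was 8.66, 8.33, 9.26 and 7.81 across WT, 9.38, 7.45, 7.94 and 8.21 across L12-ECKO and 9.14, 9.45, 8.61 and 9.15 across L12YT-ECKO. L12-ECKO replicate 1 was among the high L12YT-ECKO libraries while its other 3 libraries were below all of these. Map3k3 differed by -0.27 between L12-ECKO and WT (-1.26 to 0.71, limma adjusted p = 0.848), and it was 0.86 from L12-ECKO replicate 1 alone among the libraries without displaced rows. L12YT-ECKO minus L12-ECKO was 0.84 (-0.14 to 1.83, limma adjusted p = 0.845), and -0.08 among the libraries without displaced rows.

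**Figure D2:**
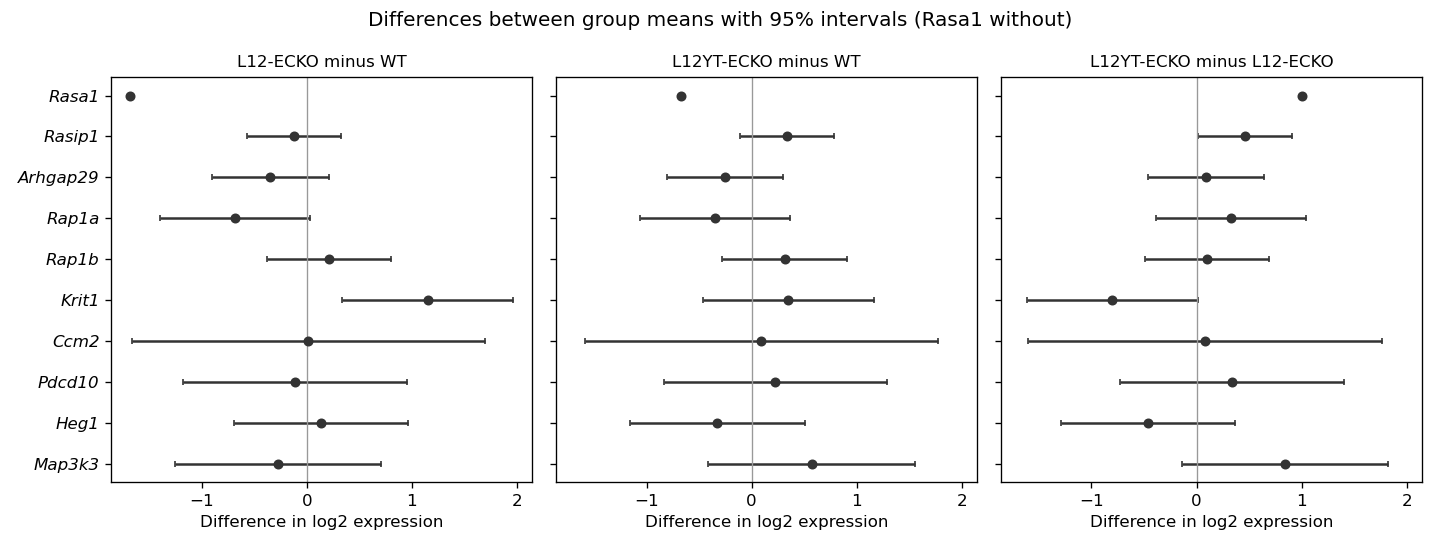
Difference in mean log2 expression (x axis) of each of the 10 genes (y axis) in the 3 comparisons, with 95% intervals from limma over 4 libraries a group. Rasa1 is drawn without an interval because it was chosen on these libraries. Among the genes drawn with an interval, only 2 intervals leave out 0. These are Krit1 in L12-ECKO minus WT, at 1.15 (0.34 to 1.96), and Rasip1 in L12YT-ECKO minus L12-ECKO, at 0.46 (0.01 to 0.90). Neither passed the adjusted test.

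Over the 9 genes other than Rasa1, the median difference was -0.11 in L12-ECKO minus WT, against -0.02 over the 11633 genes tested. By limma, 56 genes (0.481%) had an adjusted p under 0.05 in that comparison and count as called, 34 higher and 22 lower. Rasa1 was chosen for its difference here, so no test is given for it, and 0 of the other 9 were called. At an unadjusted p under 0.05 stood 1 of the 9, Krit1, against 12.2% of all genes. Krit1 was also the 1 gene of the 9 whose libraries did not overlap between the groups, against 6.33% of all genes, or 2.97% in the higher direction.

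In L12YT-ECKO minus WT the median difference of the 9 was 0.23, against 0.08 over all genes. 0 of the 9 genes were called by limma (1 of 11633 genes, 0.0086%, was), 0 of 9 stood at an unadjusted p under 0.05 (6.23% of all genes), and 0 of 9 had groups that did not overlap (4.7%). In L12YT-ECKO minus L12-ECKO the median of the 9 was 0.10, against 0.09 over all genes, and 7 of 9 were higher, against 55.0% of all genes. Again 0 of the 9 were called (8 of 11633 genes, 0.0688%), and Rasip1 was the 1 of 9 at an unadjusted p under 0.05 (6.08% of all genes). 0 of 9 had groups that did not overlap (4.38%). The 3 comparisons share libraries and are not independent of each other.

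Among the partners of RASA1, the other Ras GTPase-activating proteins had 5 of 9 genes above the filter on low values, 2 higher and 3 lower in L12-ECKO than in WT, with a median difference of -0.57 and 0 called by limma (1422 of all 11633 genes stood at an unadjusted p under 0.05, and 0 of these 5). Dab2ip, a Ras GTPase-activating protein of the endothelium, differed by 0.23 (limma adjusted p = 0.738) and Rasal2, of the same family, by -0.57 (limma adjusted p = 0.561). Of the Ras GTPases and the factors that load them with GTP, 4 were higher and 8 lower of 12 tested, with a median of -0.09 and 0 called. Nras differed by 0.17 and the exchange factor Rasgrp3 by -0.04.

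The receptor EphB4 binds RASA1, and its ligand is ephrin-B2, a marker of arteries. Efnb2, the ephrin-B2 gene, had values of 11.06, 10.51, 10.70 and 9.94 across WT, 9.78, 9.26, 8.996 and 9.17 across L12-ECKO and 10.16, 10.15, 10.10 and 10.73 across L12YT-ECKO. As with Rasa1, all 4 L12-ECKO libraries were below every library of the other groups. Of all genes, 6.33% had groups that did not overlap in L12-ECKO minus WT, and 4.38% in L12YT-ECKO minus L12-ECKO. L12-ECKO minus WT was -1.25 (SE 0.32, limma adjusted p = 0.106) and L12YT-ECKO minus L12-ECKO was 0.98 (limma adjusted p = 0.574). Among the libraries without displaced rows, where L12-ECKO replicate 1 stands alone, these differences were smaller, -0.77 (limma adjusted p = 0.909) and 0.37. Ephb4 differed by 0.42 between L12-ECKO and WT and was not called.

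Of the genes that load Rap with GTP, 4 of 6 were higher and 2 lower in L12-ECKO than in WT, with a median of 0.32 and 0 called. Rapgef3, which encodes the cAMP sensor EPAC1, differed by 0.28. Rapgef5 differed by -0.42 (limma adjusted p = 0.498) with groups that did not overlap, as in 6.33% of all genes. Of the genes that switch Rap off, 1 was higher and 3 lower of 4 tested, with a median of -0.28 and 0 called. Sipa1 differed by -0.19 (limma adjusted p = 0.767) and Sipa1l2 by -0.38 (limma adjusted p = 0.721). Among Rap2 and the Rap effectors 2 were higher and 3 lower of 5 tested, with 0 called. Rap2a, a relative of Rap1, differed by -1.18 (limma adjusted p = 0.208), and Mllt4, the afadin gene, by -0.23.

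Of the proteins bound to the CCM complex, 3 were higher and 2 lower of 5 tested, with a median of 0.12 and 0 called. Ccm2l, the endothelial paralogue of Ccm2, differed by -0.40, and Itgb1bp1, which encodes the KRIT1 partner ICAP1, by 0.58. In the list of the MEKK3 to ERK5 pathway and the genes raised when CCM genes are lost, 13 of 14 genes were tested, and 6 were higher and 7 lower in L12-ECKO than in WT. Their median difference was -0.01, and 1 was called, lower. In L12YT-ECKO minus L12-ECKO 11 of the 13 were higher, against 55.0% of all genes, with a median of 0.53 and 0 called by limma. At an unadjusted p under 0.05 stood 3 of the 13 in the higher direction and 1 in the lower, against 6.08% of all genes. The 1 that was lower, by a difference of -1.48, was Procr, the endothelial protein C receptor gene, named here after its value was seen. In L12-ECKO minus WT Procr was higher, by 1.88 (limma adjusted p = 0.1755). Its groups did not overlap there, as in 6.33% of all genes. At an unadjusted limma p under 0.05 in L12-ECKO minus WT stood 1 of the 13 in the higher direction and 2 in the lower, against 12.2% of all genes.

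The called gene was Mef2a, a MEF2 transcription factor that ERK5 can activate. Mef2a was 13.11, 13.25, 12.89 and 13.40 across WT, 12.46, 12.16, 11.96 and 12.04 across L12-ECKO and 12.96, 12.43, 12.38 and 12.57 across L12YT-ECKO. All L12-ECKO libraries were below all WT libraries, and L12YT-ECKO overlapped both groups. Of all genes, 6.33% had groups that did not overlap in L12-ECKO minus WT. Mef2a fell by 1.01 on the log2 scale in L12-ECKO (SE 0.22, limma adjusted p = 0.0474). The call was lost in 10 of the 12 fits that each left out 1 library (limma adjusted p from 0.0374 to 0.159). It was also lost in 7 of the 9 other alternatives on this scale, and after a second logarithm (limma adjusted p = 0.0613). Among the 7 were the displaced rows as a covariate (difference -0.78, limma adjusted p = 0.411) and the libraries without displaced rows (-0.70). Sex as a covariate (limma adjusted p = 0.164) and no mean trend (limma adjusted p = 0.276) were others.

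**Figure D3:**
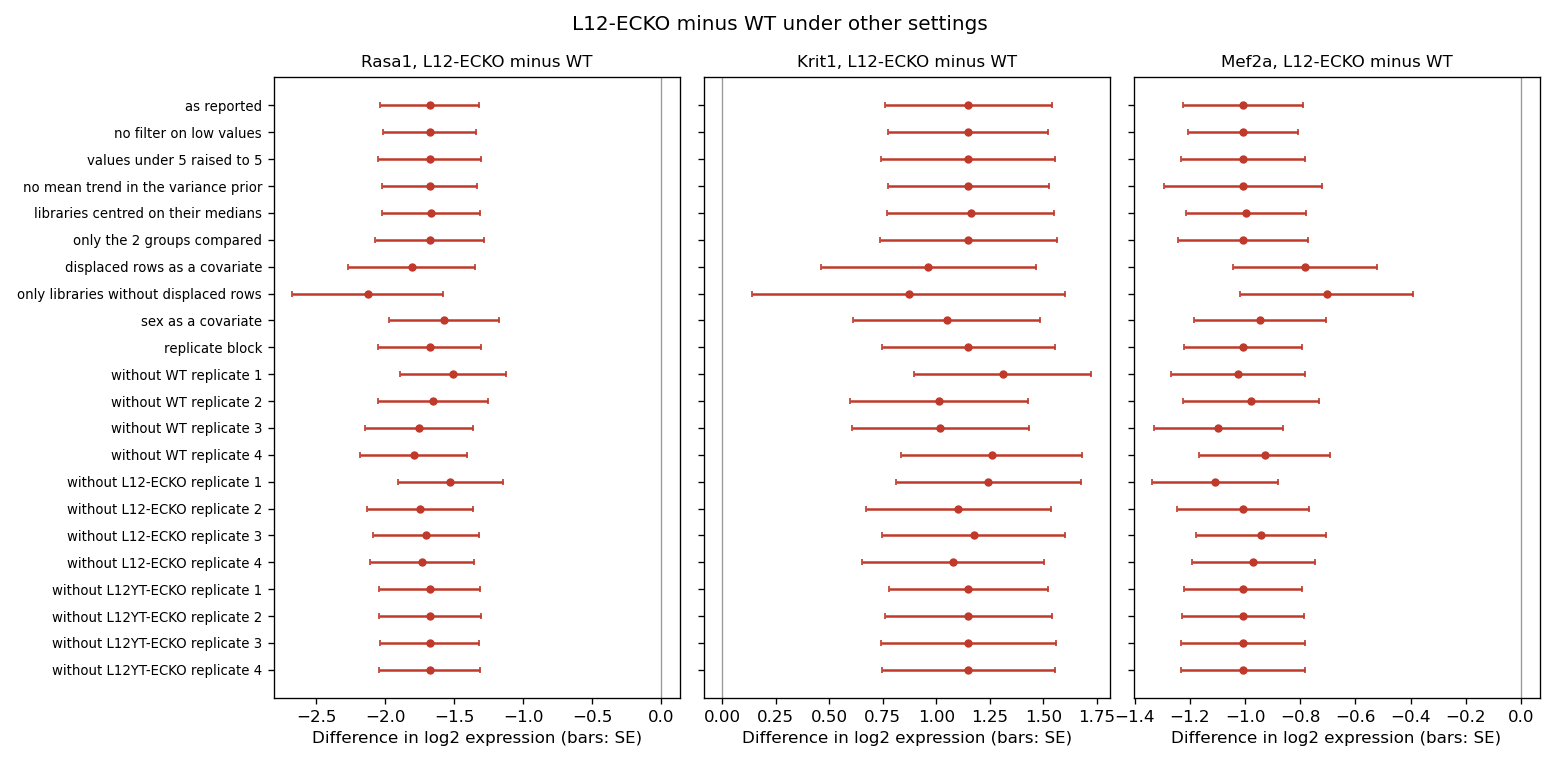
Difference in log2 expression between L12-ECKO and WT (x axis) of Rasa1, Krit1 and Mef2a under each alternative setting on that scale, including each library left out (y axis). Points are estimates and bars are standard errors. Rasa1 lies between -2.13 and -1.51, a description only, because it was chosen for this difference. Krit1 stays between 0.87 and 1.31, and the Mef2a difference is smallest, at -0.70, where only libraries without displaced rows were used.

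Klf2 and Klf4 encode the factors that rise when the CCM complex is lost, and are described here because of that role and after their values were seen. Klf2 was 11.16, 11.26, 10.90 and 10.94 across WT, 11.37, 11.21, 10.73 and 10.66 across L12-ECKO and 11.95, 11.60, 11.38 and 12.15 across L12YT-ECKO. Its L12YT-ECKO libraries lay above every library of the other groups, though L12YT-ECKO replicate 3 (11.376) and L12-ECKO replicate 1 (11.371) were almost level. L12YT-ECKO minus WT was 0.70 (limma adjusted p = 0.748) and L12-ECKO minus WT was -0.07 (limma adjusted p = 0.933). Klf4 was 12.49, 12.38, 13.22 and 12.14 across WT, 12.19, 12.74, 12.54 and 11.50 across L12-ECKO and 13.54, 12.92, 13.08 and 13.24 across L12YT-ECKO. It was higher in every L12YT-ECKO library than in any L12-ECKO library, a difference of 0.95 (limma adjusted p = 0.487), with WT replicate 3 at the L12YT-ECKO level. Neither gene passed the test in any of the 3 comparisons. Of all genes, 4.7% had groups that did not overlap in L12YT-ECKO minus WT, and 4.38% in L12YT-ECKO minus L12-ECKO. From the same list, Adamts9 also did not overlap in the first of these (difference 2.64), nor Thbd in the second (0.74). Both are named after their values were seen and were not called.

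**Figure D4:**
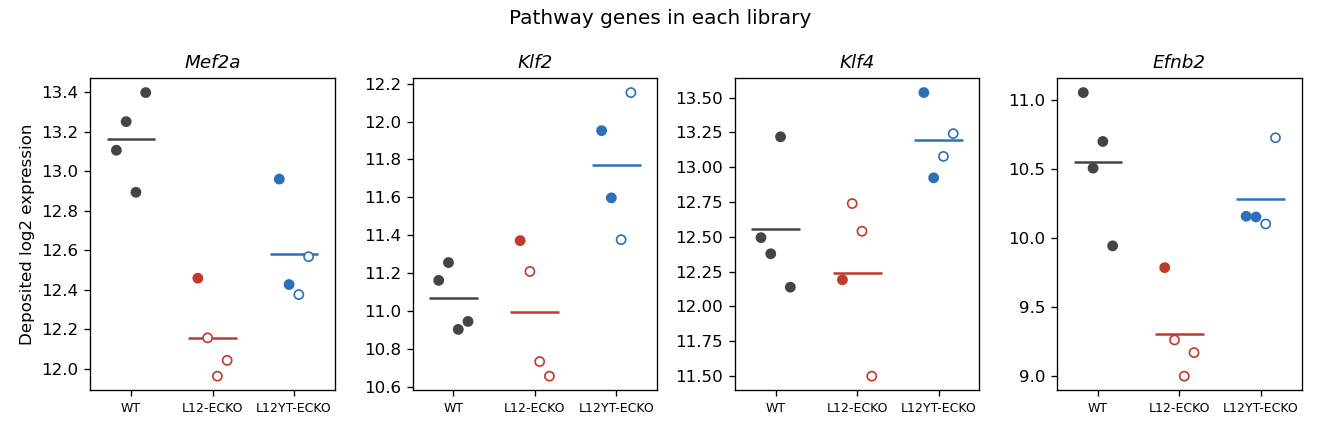
Deposited log2 expression of Mef2a, Klf2, Klf4 and Efnb2 in each of the 12 libraries, by group. Lines are group means, and open points are libraries with displaced rows. Mef2a and Efnb2 are lower in all 4 L12-ECKO libraries than in any WT library, and Klf2 and Klf4 are higher in all 4 L12YT-ECKO libraries than in any L12-ECKO library.

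The genes whose values followed those of Rasa1 most closely over the 12 libraries were Scn7a (Pearson r = 0.963), Tmem100 (0.925), Sema3c (0.914), Cbfa2t3 (0.910) and Arap2 (0.906). Scn7a encodes a sodium channel protein, Tmem100 an endothelial membrane protein, and Sema3c a secreted semaphorin. All 5 had their lowest group mean in L12-ECKO, as Rasa1 has, and once the group means were taken out the r with Rasa1 was 0.633 to 0.811. For Rasip1 the closest were Tpcn1 (0.908), Hoxaas2 (0.899), Phf1 (0.896), Hoxa3 (0.895) and Rbm27 (0.894), of which Hoxa3 and Hoxaas2 are neighbours that overlap. These genes share libraries and normalization with Rasa1 and Rasip1 and were the highest of all genes tested, so the r values are a description.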

How the data were processed

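RNA from sorted lung endothelial cells was made into 3′ end libraries with the Lexogen QuantSeq kit, per the labels' protocols. Bowtie2, edgeR and the mm10 build are named per the submitters' processing notes, without roles or versions. The deposited values per gene are on a log2 scale, normalized by the authors. No header states this. It was read from the values, whose 5000 top ranks are within 0.168 of each other in all libraries. Such values cannot show a change in total RNA, and a library rich in other transcripts can have its remaining genes shifted. Depth is unknown and no counting interval is given. Left out were 27 genes that have turned into dates in some tables and 35 displaced rows.

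limma 3.58.1 (R 4.3.3, statmod 1.5.0) was fitted to the 12 libraries with 1 mean for each group and a robust variance prior that follows expression level (9 residual degrees of freedom, prior median 10.1). The test covered 11633 genes at 1 CPM or more in at least 4 libraries, with CPM taken from the deposited log2 values turned back to a linear scale. All 10 members passed. Benjamini-Hochberg adjustment was over these genes. The fit was tested on simulated data.

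The members and lists were chosen with earlier results of these data known. Named were all members, the called genes of each list or else its 2 most abundant, and the 5 genes most like Rasa1 and Rasip1. A further pathway list is not reported here. Positions are from GENCODE M21 and promoters from RefSeq. Replicate numbers did not pair the libraries (12 same-number pairs, r from -0.0463 to 0.0582). Filters, scalings, the variance prior, covariates, a replicate block and leaving out libraries were the alternatives.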

Additional observations from a re-analysis of the deposited data

Results flagged for a closer look

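Arhgap29 in L12-ECKO replicate 1, at a log2 value of 11.12 (11.115), stood apart from the other 3 libraries of its group, which lay between 10.64 and 10.69, the gap being 0.893 of the group's range. Efnb2 in L12YT-ECKO replicate 4, at 10.73 (10.727), stood apart from the other 3 at 10.10 to 10.16, with a gap of 0.911 of the range. These were 2 of the 81 groups of 4 libraries tested, and chance flags about 1 in 20.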

How the results depend on the processing

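Under every alternative run, 0 of the 9 genes beside Rasa1 were called in any comparison. Krit1 in L12-ECKO minus WT kept its direction in all of them. So did Rasa1, but it was chosen for that direction, so this is no support for it. The Rasa1 difference was -0.236 after a second logarithm, which is another scale, and -2.13 in libraries without displaced rows.

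The number of genes called in L12-ECKO minus WT, 56 as reported, was 21 with no filter, 87 with low values raised to 5, 7 without the mean trend, 27 after a second logarithm, 30 with only those groups fitted, 15 with the displaced rows as a covariate and 15 with sex as one. It ranged from 15 to 80 with 1 library left out. In L12YT-ECKO minus WT the 1 call became 0 without the mean trend (688 genes at an unadjusted limma p under 0.05), and 1 to 3 with a library left out. In L12YT-ECKO minus L12-ECKO the 8 calls became 3 without the trend, 4 after a second logarithm, 5 with only those groups, 5 with sex, 14 without displaced libraries, 0 with only displaced libraries (396 at an unadjusted limma p under 0.05) and 4 to 9 with a library left out. The causes were not tested.

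Several uncalled differences turned sign. In L12-ECKO minus WT the displaced rows as a covariate gave Ccm2 -0.58, Map3k3 0.39, Dab2ip -0.0102, Nras -0.055 and Klf2 0.0929. Libraries without displaced rows gave Ccm2 -0.20, Map3k3 0.86, Rapgef3 -0.0418, Sipa1l2 0.32 (-0.38 as reported), Itgb1bp1 -0.25 (0.58 as reported) and Klf2 0.31. Sex as a covariate gave Ccm2 -0.58, Map3k3 0.24 and Klf2 0.12. In L12YT-ECKO minus WT Ccm2 was -0.30 with the covariate and -0.49 in libraries without displaced rows. In L12YT-ECKO minus L12-ECKO Arhgap29 was -0.00961, -0.0605 and -0.13 under those 3 settings, and without displaced rows Rap1a was -0.32 (0.33 as reported), Ccm2 -0.29 and Map3k3 -0.082 (0.84 as reported).

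With 1 library left out, L12-ECKO minus WT ranged from -0.33 to 0.016 for Rasip1, -0.0121 to 0.39 for Rap1b, -0.85 to 0.72 for Ccm2, -0.38 to 0.22 for Pdcd10, -0.0848 to 0.27 for Heg1, -0.22 to 0.14 for Rasgrp3, -0.0854 to 0.29 for Nras and -0.20 to 0.0382 for Klf2. Ccm2 ranged from -0.77 to 0.80 in L12YT-ECKO minus WT and from -0.21 to 0.54 in L12YT-ECKO minus L12-ECKO, where Rap1b ranged from -0.0252 to 0.18.

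The libraries share only their replicate numbers. With the replicate block 43, 1 and 6 genes were called in the 3 comparisons, Krit1 had a limma adjusted p of 0.25 and Mef2a one of 0.054. No WT library has displaced rows, so libraries with them give no comparison with WT, and their part cannot be told apart from the group there beyond the fits above. Without counts, the precision of low values cannot be set from depth.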
